A study of Mus musculus with 8 samples.

Results

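The 39 genes described here encode the core machinery of DNA replication. They were taken as a named list: the 6 subunits of the MCM helicase (Mcm2 to Mcm7), the 6 subunits of the origin recognition complex (Orc1 to Orc6), 8 factors that load and activate the helicase (Cdc6, Cdt1, Mcm10, Cdc45 and Gins1 to Gins4), the sliding clamp Pcna with the 5 clamp loader subunits Rfc1 to Rfc5, 6 subunits of the replicative polymerases and primase (Pola1, Pola2, Pold1, Pole, Prim1, Prim2), 4 factors that bind single strands or finish the lagging strand (Rpa1, Rpa2, Fen1, Lig1), and 3 enzymes that supply deoxynucleotides (Rrm1, Rrm2, Tyms). All 39 had at least 1 probe, 44 probes in all, found through the RefSeq accession of each probe. All 39 were among the 15196 genes that could be tested, of 21154 genes named on the array.

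RNA was measured on 8 one-colour arrays of mouse embryonic stem cells that lack H-Ras and N-Ras and carry a K-Ras gene flanked by lox sites together with a tamoxifen-inducible Cre (H-Ras-/-; N-Ras-/-; K-Ras lox/lox; RERT ert/ert). The 4 groups of 2 arrays were ERF knockout cells given 4-hydroxytamoxifen (OHT) for at least 2 days, ERF knockout cells left untreated, ERF wild type cells given OHT, and ERF wild type cells left untreated. OHT removes K-Ras, the last RAS gene of these cells, and the untreated controls already lack the other RAS genes. The cells grew on gelatin with serum and LIF, and each sample was a mix of 2 clones, so a replicate stands for 1 mix and not for a genotype at large. Pools A2 and B2 are the knockout mixes and pools A1 and B1 the wild type mixes, and each pool was sampled with and without OHT.

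Each cell copies its genome once per cycle. The origin recognition complex, Cdc6 and Cdt1 place the MCM ring on origins in G1, Cdc45 and the GINS complex turn it into an active helicase at S phase, and the clamp loader puts Pcna on the primed ends where the polymerases extend. Many of these genes are transcribed under E2F factors, which the retinoblastoma (RB) proteins restrain until cyclin-dependent kinases act on them. In many somatic cells RAS and ERK signalling feeds that switch through D-type cyclins, while mouse embryonic stem cells are known for a short G1 phase and for E2F activity through most of the cycle. ERF is a repressor of the ETS family that ERK keeps out of the nucleus.

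Promoters of some members are shown first, as RefSeq gives them for assembly GRCm38.p6, from 250 bases before to 50 bases after the annotated start. Capitals mark matches to an E2F word (TTTCGCGC or TTTGGCGC) or an ETS word (CCGGAAGT) on either strand. Mcm5 and Mcm6 are shown as helicase genes with E2F words, and Rfc5, Rfc4 and Orc2 as the 3 members with the smallest p-values after OHT in the labelled knockout, paired by pool.
Mcm5, chr8:75109259-75109558, plus strand: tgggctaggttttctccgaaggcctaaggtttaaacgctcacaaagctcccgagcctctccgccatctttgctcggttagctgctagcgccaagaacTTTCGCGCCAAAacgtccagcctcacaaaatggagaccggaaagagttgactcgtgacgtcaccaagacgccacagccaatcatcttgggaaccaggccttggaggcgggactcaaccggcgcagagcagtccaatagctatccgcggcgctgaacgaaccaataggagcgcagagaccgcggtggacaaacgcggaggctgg
Mcm6, chr1:128359656-128359955, minus strand: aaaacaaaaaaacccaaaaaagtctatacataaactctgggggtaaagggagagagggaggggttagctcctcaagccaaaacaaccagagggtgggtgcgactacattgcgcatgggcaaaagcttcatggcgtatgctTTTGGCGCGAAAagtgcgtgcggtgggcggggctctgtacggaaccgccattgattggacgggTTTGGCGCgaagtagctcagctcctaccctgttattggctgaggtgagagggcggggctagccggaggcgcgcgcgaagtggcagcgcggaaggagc
Rfc5, chr5:117388974-117389273, minus strand: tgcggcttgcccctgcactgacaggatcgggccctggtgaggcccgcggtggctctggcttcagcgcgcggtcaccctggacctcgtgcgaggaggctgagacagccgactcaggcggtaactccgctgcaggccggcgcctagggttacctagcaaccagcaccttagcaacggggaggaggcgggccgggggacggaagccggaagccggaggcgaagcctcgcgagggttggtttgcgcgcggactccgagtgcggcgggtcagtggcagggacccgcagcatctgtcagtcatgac
Rfc4, chr16:23127681-23127980, minus strand: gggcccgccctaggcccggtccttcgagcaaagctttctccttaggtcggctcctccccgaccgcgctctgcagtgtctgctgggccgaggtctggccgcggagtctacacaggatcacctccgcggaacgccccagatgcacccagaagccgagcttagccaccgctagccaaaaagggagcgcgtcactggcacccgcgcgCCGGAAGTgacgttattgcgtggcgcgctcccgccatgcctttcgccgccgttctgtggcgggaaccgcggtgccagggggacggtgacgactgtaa
Orc2, chr1:58505060-58505359, minus strand, 1 of 2 listed: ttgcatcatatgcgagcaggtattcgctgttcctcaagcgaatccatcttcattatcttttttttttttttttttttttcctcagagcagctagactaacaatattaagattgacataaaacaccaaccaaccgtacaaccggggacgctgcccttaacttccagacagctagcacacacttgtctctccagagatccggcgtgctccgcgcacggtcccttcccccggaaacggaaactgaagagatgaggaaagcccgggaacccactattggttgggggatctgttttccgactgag
In Mcm5 the capitals are a pair of E2F words, starting at -153 and -149, that share letters. Mcm6 holds another overlapping pair at -110 and -106 and a further E2F word at -47. Rfc4 holds an ETS word at -47. Neither E2F word and no ETS word is in the windows of Rfc5 and Orc2.

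The reference table held 39 promoters for 32 of the 39 genes. Mcm4, Pole, Gins1, Gins2, Gins4, Rfc2 and Prim2 were not listed. An E2F word was in 9 of these 39 promoters (23.1%), against 0.813% of the 32851 promoters of the whole table. The 9 were promoters of Cdt1, Lig1, Mcm3, Mcm5, Mcm6, Mcm7, Orc1, Pola1 and Rfc3. The ETS word was in 7 promoters (17.9%), those of Gins3, Mcm10, Orc3, Rfc3, Rfc4, Rpa2 and Tyms, against 3.89% of all. The NF-Y word CCAAT was in 23 (59.0%), against 37.4% of all. Rfc3 held both an E2F and an ETS word. The pair of E2F words differ at a single letter and can overlap when they lie on opposite strands. A match is a description of the letters and not evidence of binding.

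**Figure D1:**
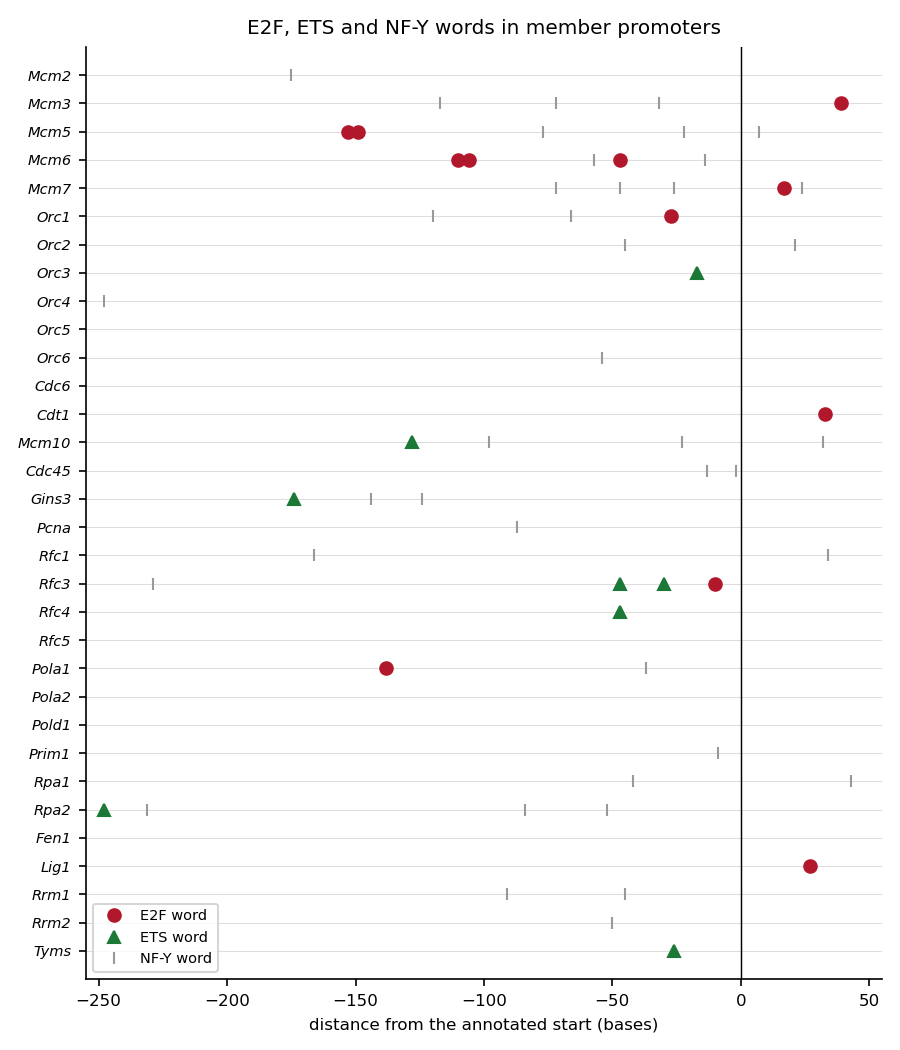
Position of E2F (circles), ETS (triangles) and NF-Y (bars) words in the promoters of 32 replication genes, in bases from the annotated start, with several promoters of a gene drawn on 1 line. Of 12 E2F words, 7 lie within 100 bases of the start, as do 5 of 8 ETS words.

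Levels are given as the log2 of the processed signal over the array's own 75th percentile, and each change or difference is on the same log2 scale. The share of spots well above background was 54.0% to 63.6% per array and no spot was saturated. Parts of the knockout OHT arrays were dark: 6.07% of the spots of pool A2 and 2.79% of pool B2 lay in such patches, against 0% to 1.88% on the other 6 arrays. The probes of 38 members were well above background on all 8 arrays, and that of Prim2 on 7. Erf itself, with OHT, measured 3.73 in pool A2 and 5.13 in pool B2, against 4.79 and 4.73 in the wild type pools A1 and B1. Without OHT it measured 3.25 in A2 and 5.42 in B2, against 4.91 in A1 and 5.21 in B1. The untreated A1 value came from a dark patch or its margin and was left out of the paired fit. Pool B2 thus stood at the wild type level of Erf, so the groups are called labelled knockout below; whether the Erf probe lies within the deleted part was not determined. As a check of OHT, the ERK target Dusp6 measured 3.18 and 2.96 with OHT, against 5.12 and 5.02 without, in the labelled knockout, and 2.44 and 2.41 with OHT, against 4.68 and 4.75 without, in the wild type.

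The first question was whether the replication genes fell when the last RAS gene was removed. In a fit that pairs the pools, with signals scaled to the 75th percentile, 2 of 39 genes passed as lower in both genotypes, by 1.26-fold to 1.36-fold. They were Rfc5, a subunit of the clamp loader, and Orc2, a subunit of the origin recognition complex. Of all genes 4.12% passed as lower in the labelled knockout and 9.29% in the wild type, and the share lower in both was not counted. No gene of the list passed as higher with that scaling. Rrm2, Lig1 and Pole passed as higher in the wild type under other scalings, given below. Neither Rfc5 nor Orc2 passed with array median scaling or with the pool block alone, as given below. In the test on group means (limma, Benjamini-Hochberg over all genes), 0 of 39 passed in the labelled knockout and 0 of 39 in the wild type, against 0.0% of all genes in both, and no member had an unadjusted p under 0.05 in either. Over all 15196 genes 611 had such a p in the labelled knockout and 924 in the wild type. The test on group means ignores that each pool was sampled with and without OHT. A limma fit with the 4 pools as blocks, a trended and robust variance and the dark patches left out is called the paired fit here. In it 2 of 39 passed as lower in the labelled knockout, against 4.12% of all genes (10.2% in either direction), and 0 as higher, against 6.12%. In the wild type 2 of 39 passed as lower as well, against 9.29% of all genes (17.4% in either direction), and 0 as higher, against 8.14%. With 2 pools per genotype these p-values set the OHT change against a spread that limma takes partly from other genes, through the variance trend. The gene's own part is how far its OHT change varied between the pools of a genotype, taken over both genotypes.

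Markers of cell types also moved with OHT. In the paired fit 6.12% of all genes passed as higher and 4.12% as lower in the labelled knockout. In the wild type 8.14% passed as higher and 9.29% as lower. Of 7 trophoblast markers 2 passed as higher and 1 as lower in the labelled knockout, and 4 as higher and 1 as lower in the wild type. Their summed signal over the 75th percentile was 343 in A2 and 37.6 in B2 with OHT, against 291 and 27.5 without, and 104 in A1 and 46.5 in B1 with OHT, against 66.2 and 23.0 without. Of 10 embryonic stem cell markers 1 passed as higher and 2 as lower in the labelled knockout, and 4 as higher and 3 as lower in the wild type, where Nanog was higher by 1.36 and Utf1 lower, at -1.49. All 9 fibroblast markers tested were above 0 in the labelled knockout and 8 of the 9 in the wild type. Of them 2 passed in the labelled knockout (Prrx1 and Col1a2) and 0 in the wild type. The difference of the OHT changes between the genotypes passed for 0 of the 9. The part of these markers in the changes of the replication genes was not tested.

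The sizes were small across the list. In the labelled knockout the changes of the 39 genes ran from -0.44 to 0.50 with a median of -0.11, while all genes together had a median of 0.05. Wild type changes ran from -0.41 to 0.18 with a median of -0.05, against -0.03 over all genes. The 95% interval of the change lay within 1.5-fold (0.585 on the log2 scale) for 37 of 39 members in each genotype (94.9%), against 55.9% of all genes in the labelled knockout and 54.8% in the wild type. Orc2 and Prim2 reached beyond it in the labelled knockout, and Orc2 and Pola2 in the wild type. No member changed by 2-fold, as 3.49% and 4.97% of all genes did in the labelled knockout and the wild type. The members were brighter, with median levels per array of 4.16 to 4.61, against 0.50 to 0.65 over all genes. The variance in the paired fit follows a trend with level, and genes of like level were not compared.

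**Figure D2:**
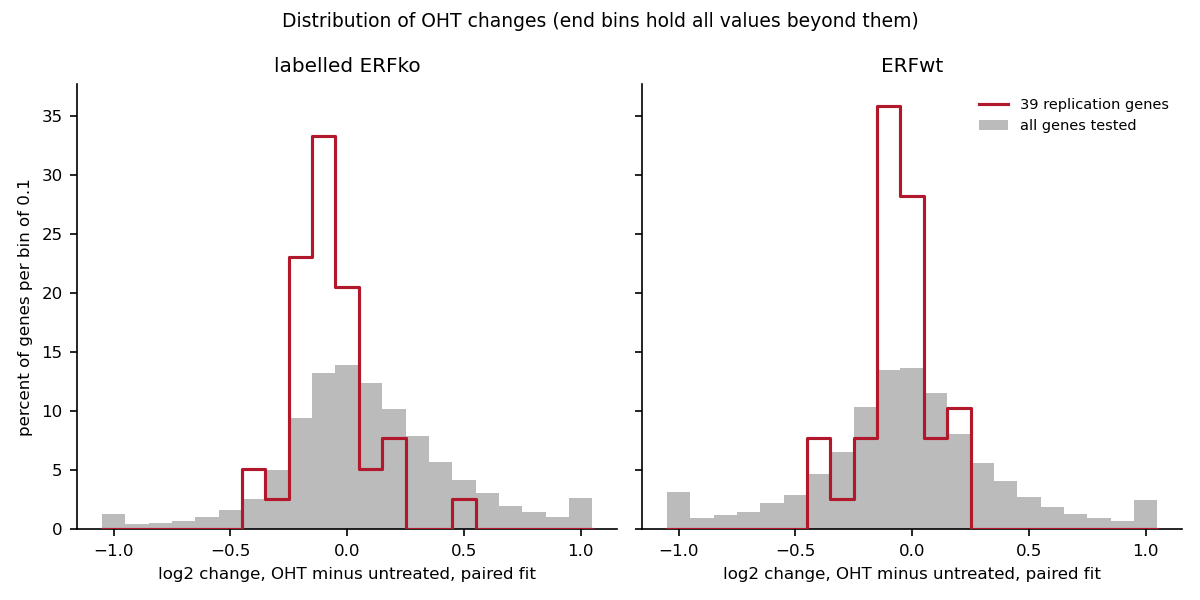
Percent of genes in bins of 0.1 by log2 change, OHT minus untreated in the paired fit, for the 39 replication genes (line) and all genes tested (bars), in labelled knockout and wild type cells. The replication genes lie between -0.44 and 0.50 in the labelled knockout and between -0.41 and 0.18 in the wild type, inside the range of all genes.

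The median depends on the scaling. In the labelled knockout it stayed below 0 in the paired fit, at -0.05 after quantile normalization, -0.13 after normexp background correction and -0.30 after scaling to the array median. In the wild type it was -0.01 after quantile normalization, 0.03 after normexp and 0.10 after array median scaling, so its direction turned with normexp and with array median scaling. Scaling to the array median moved the median of all genes to -0.15 in the labelled knockout and 0.12 in the wild type, against 0.05 and -0.03 with the 75th percentile. Signs in each pool were counted with the 75th percentile, over the 35 members measured on all 8 arrays. There 13 were lower after OHT in all 4 pools, against 22.1% of all genes. Another 3 (Lig1, Pold1 and Tyms) were higher in all 4, against 24.5%. After array median scaling 37 of 39 members had a paired change below 0 in the labelled knockout. In the wild type 32 of 39 were then above 0, so the sign counts depend on the scaling.

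**Figure D3:**
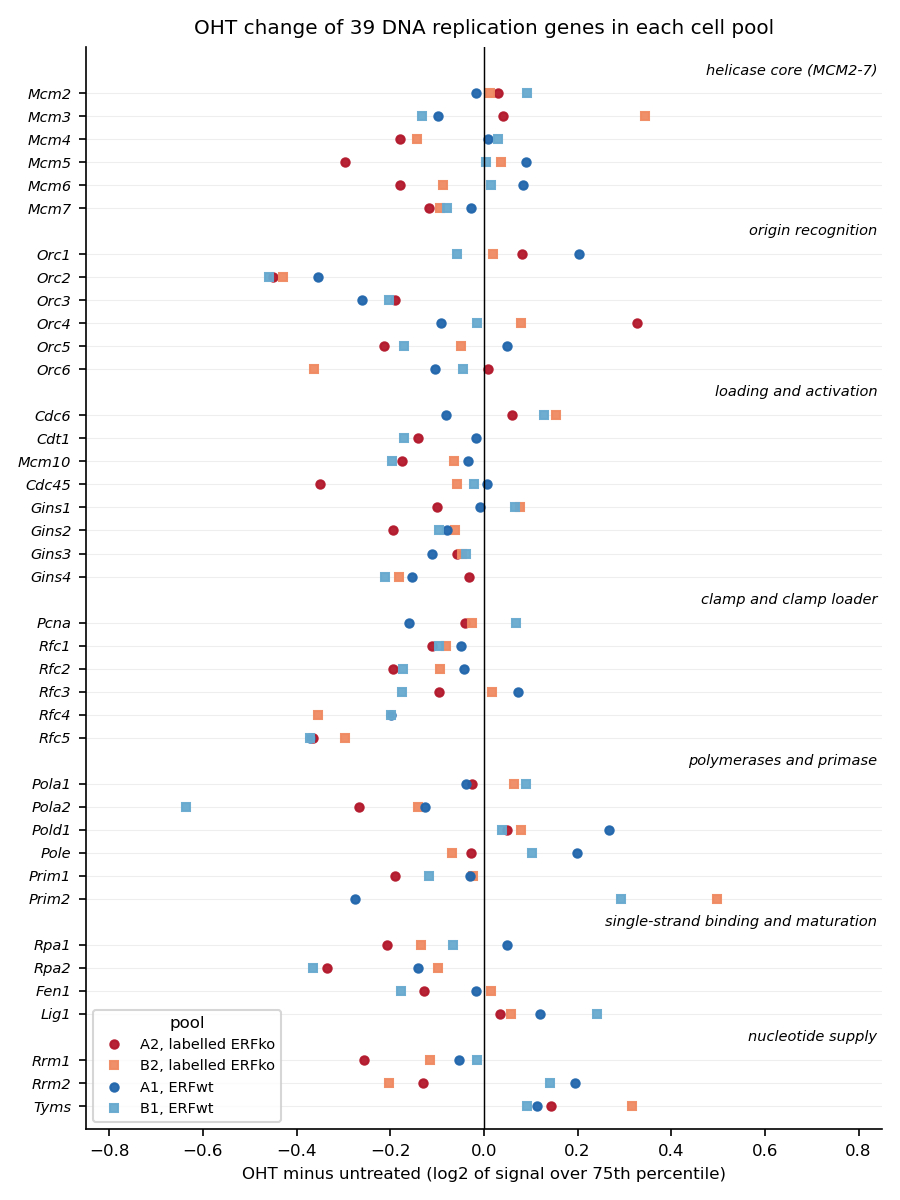
Change of each gene after OHT (log2, OHT minus untreated) in pools A2 and B2 of the labelled knockout and A1 and B1 of the wild type, grouped by role. Rfc5 and Orc2 lie left of 0 in all 4 pools with values between -0.30 and -0.46, while most other genes scatter around 0; points of arrays with the probe in a dark patch are left out.

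Among the origin recognition genes, which mark the sites where replication starts, Orc2 fell in both genotypes. It measured 1.31 in A2 and 1.73 in B2 with OHT, against 1.76 and 2.15 without, in the labelled knockout. In the wild type it measured 1.60 in A1 and 1.69 in B1 with OHT, against 1.96 and 2.14 without. Each OHT array was below both untreated arrays of its genotype, so the groups did not overlap. In the paired fit the change was -0.44 ± 0.09 (SE; 1.36-fold lower, limma adjusted p = 0.0231) in the labelled knockout and -0.41 ± 0.09 (1.33-fold lower, adjusted p = 0.0175) in the wild type. The calls rest on both pools: the adjusted p was 0.0901 without A2, 0.0651 without B2, 0.132 without A1 and 0.259 without B1. Array median scaling and the pool block alone ended both calls, with adjusted p of 0.707 and 0.166 in the labelled knockout and 0.980 and 0.115 in the wild type. Normexp ended the wild type call (adjusted p = 0.0580), and keeping the dark patches ended that of the labelled knockout (0.0539). The direction was down under each of these settings.

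The other origin recognition genes did not pass. Orc3 measured 3.21 in A2 with OHT, against 3.40 without, and in the wild type 3.36 in A1 and 3.50 in B1 with OHT, against 3.62 and 3.70 without. Its spot on the OHT array of pool B2 lay in a dark patch and read -3.90, against 3.83 without OHT, and was left out of the paired fit, where the wild type change was -0.23 ± 0.08 (adjusted p = 0.0838). That 1 spot gives Orc3 its place in the plain test, where the change in the labelled knockout was -3.96. The probes of Orc3 disagreed. Its second, far dimmer probe, well above background on 7 arrays, changed by 0.31 in A2, 1.24 in B2, -0.40 in A1 and 0.39 in B1. Orc1, which is known to vary with the cycle in human cells, measured 1.21 and 1.46 with OHT, against 1.13 and 1.44 without, in A2 and B2, and 1.59 and 1.83 with OHT, against 1.39 and 1.89 without, in A1 and B1. Its groups overlapped in both genotypes. Orc4, Orc5 and Orc6 changed by -0.36 to 0.33 over the 4 pools.

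The clamp loader, the 5-subunit ring that opens Pcna and closes it on DNA, held the other gene that passed. Rfc5 measured 5.61 in A2 and 6.09 in B2 with OHT, against 5.98 and 6.39 without, in the labelled knockout. The wild type had 5.81 in A1 and 6.12 in B1 with OHT, against 6.19 and 6.49 without. The OHT level of B2 lay above the untreated level of A2, so the labelled knockout groups overlapped, while the wild type groups did not; within each pool OHT was lower. The change in A2, B2, A1 and B1 was -0.37, -0.30, -0.37 and -0.37, the wild type pools lying on different slides. In the paired fit it was -0.33 ± 0.06 (1.26-fold lower, limma adjusted p = 0.0167) in the labelled knockout and -0.37 ± 0.06 (1.29-fold lower, adjusted p = 0.00538) in the wild type. The adjusted p was 0.0880 without A2, 0.0420 without B2, 0.0691 without A1 and 0.0776 without B1. With array median scaling it was 0.837 in the labelled knockout and 0.992 in the wild type, and with the pool block alone 0.181 and 0.118.

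Rfc4, another subunit of that ring, had the next smallest p-values of the group and did not pass. Its brighter probe measured 4.39 in A2 and 4.60 in B2 with OHT, against 4.68 and 4.95 without, in the labelled knockout, and 4.75 and 4.62 with OHT, against 4.95 and 4.82 without, in A1 and B1. The paired change was -0.35 ± 0.10 (adjusted p = 0.0636) in the labelled knockout, where the A2 spot lay at the margin of a dark patch and was left out, and -0.20 ± 0.07 (adjusted p = 0.0933) in the wild type. The changes of its second probe were -0.44, -0.35, -0.27 and -0.27 in A2, B2, A1 and B1. Pcna and Rfc1 to Rfc3 changed by -0.19 to 0.07 in any pool. All 6 genes of the clamp and its loader had a paired change below 0 in both genotypes with the 75th percentile, with medians of -0.12 in the labelled knockout and -0.09 in the wild type. After array median scaling 4 of the 6 were above 0 in the wild type and 0 of 6 in the labelled knockout.

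**Figure D4:**
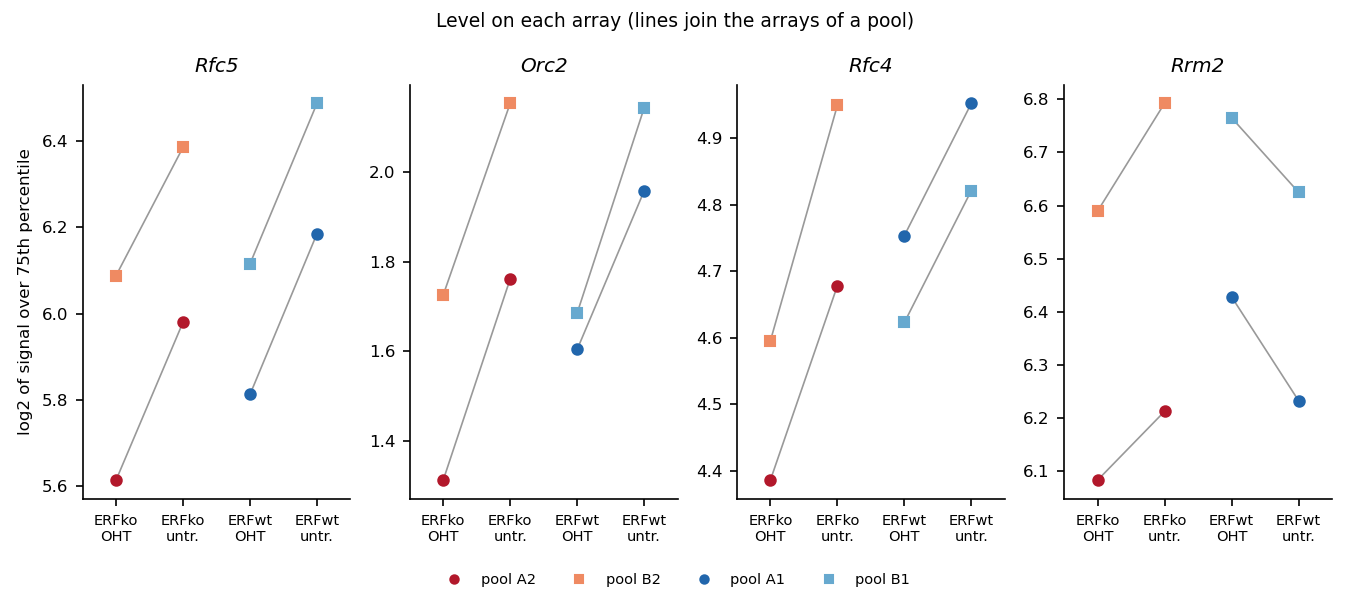
Log2 level of Rfc5, Orc2, Rfc4 and Rrm2 on each of the 8 arrays, with lines joining the OHT and untreated arrays of a pool. Rfc5, Orc2 and Rfc4 are lower with OHT in every pool, and Rrm2 is lower in A2 and B2 and higher in A1 and B1; the A2 OHT point of Rfc4 was left out of the paired fit.

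None of the helicase subunits Mcm2 to Mcm7 passed in either genotype. Their paired changes ran from -0.16 to 0.19 in the labelled knockout, with 3 of 6 at an unadjusted p under 0.05, and from -0.12 to 0.05 in the wild type, with none. Over all genes 4384 of 15179 had such a p in the labelled knockout and 4935 of 15196 in the wild type. Mcm4 measured 5.47 and 5.99 with OHT, against 5.65 and 6.14 without, in A2 and B2. In A1 and B1 it measured 5.92 and 6.19 with OHT, against 5.91 and 6.16 without. OHT and untreated values of Mcm4 overlapped in both genotypes, and in the wild type they were within 0.03 of each other in each pool.

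Mcm6 measured 6.88 and 7.38 with OHT, against 7.06 and 7.47 without, in A2 and B2, and 7.16 and 7.39 with OHT, against 7.07 and 7.38 without, in A1 and B1. Mcm3 went the other way, with 5.31 and 5.70 with OHT, against 5.27 and 5.35 without, in A2 and B2, and 5.54 and 5.33 with OHT, against 5.64 and 5.46 without, in A1 and B1. The subunits of this complex showed no common direction in the labelled knockout, where Mcm3 had a paired change of 0.19 ± 0.08 (limma adjusted p = 0.164), Mcm4 -0.16 ± 0.06 (0.117) and Mcm6 -0.13 ± 0.06 (0.164). Under array median scaling all 6 were below 0 in the labelled knockout and above 0 in the wild type.

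No factor that loads or activates the helicase passed. The 8 paired changes ran from -0.20 to 0.11 in the labelled knockout (median -0.11) and from -0.18 to 0.03 in the wild type (median -0.08). Gins4, a subunit of the GINS complex, measured 3.32 and 4.32 with OHT, against 3.36 and 4.50 without, in A2 and B2, and 3.74 and 4.34 with OHT, against 3.90 and 4.55 without, in A1 and B1. It was lower in each pool by 0.03 to 0.21, far less than the gap between the pools of a genotype. Cdc6 and Cdt1, which bring the helicase to origins, changed by -0.17 to 0.15 in the pools that could be measured, with the brighter probe of Cdc6; the Cdt1 spot of the B2 OHT array was left out. The second Cdc6 probe, well above background on 8 arrays, changed by -0.13 in A2, 0.34 in B2 and 0.41 in B1, and by less than 0.01 in A1.

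The polymerase and primase subunits did not pass either. Pola2, a subunit of the polymerase that starts each strand, measured -1.14 and -0.19 with OHT, against -0.88 and -0.05 without, in A2 and B2, and -0.40 and -0.56 with OHT, against -0.28 and 0.07 without, in A1 and B1. The B1 change of -0.64 was the lowest of any member in any pool, and the wild type change was -0.38 ± 0.15 (limma adjusted p = 0.122). Pole and Pold1, catalytic subunits of the leading and lagging strand polymerases, had positive changes in the wild type that did not pass. Pole measured 4.28 and 4.79 with OHT, against 4.31 and 4.86 without, in A2 and B2, and 4.73 and 4.72 with OHT, against 4.53 and 4.62 without, in A1 and B1. Pold1 measured 4.37 and 4.69 with OHT, against 4.32 and 4.61 without, in A2 and B2, and 4.64 and 4.46 with OHT, against 4.37 and 4.42 without, in A1 and B1. In the wild type the OHT values of both genes lay above the untreated ones, with changes of 0.15 ± 0.07 (adjusted p = 0.164) and 0.15 ± 0.08 (0.214). Prim2 read -7.18 on the A2 OHT array, within a dark patch, against -0.92 without OHT, and its changes in the other pools, B2, A1 and B1, were 0.50, -0.28 and 0.29.

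Of the factors on single strands and in strand maturation, Rpa1 and Rpa2, which coat single-stranded DNA, and the ligase Lig1 had unadjusted p-values under 0.05 in a genotype. Such p-values were common over all genes, as given for the helicase subunits. Rpa2 measured 1.73 and 2.66 with OHT, against 2.07 and 2.76 without, in A2 and B2, and 2.36 and 2.47 with OHT, against 2.50 and 2.83 without, in A1 and B1. It was lower with OHT in all 4 pools, with paired changes of -0.22 ± 0.10 (limma adjusted p = 0.192) in the labelled knockout and -0.25 ± 0.10 (0.118) in the wild type. Rpa1 measured 5.75 and 6.41 with OHT, against 5.96 and 6.55 without, in A2 and B2, and 6.24 and 6.07 with OHT, against 6.19 and 6.13 without, in A1 and B1. Lig1 measured 5.43 and 6.10 with OHT, against 5.40 and 6.04 without, in A2 and B2, and 5.86 and 6.16 with OHT, against 5.74 and 5.92 without, in A1 and B1. Lig1 was higher in every pool, by 0.18 ± 0.06 (adjusted p = 0.0866) in the wild type. Fen1, which trims Okazaki fragments, changed by -0.18 to 0.02.

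The genes of nucleotide supply included the member with the smallest p-value in the test of the difference between the genotypes. Rrm2, the subunit of ribonucleotide reductase that is known to follow the cell cycle, measured 6.08 and 6.59 with OHT, against 6.21 and 6.79 without, in A2 and B2. In A1 and B1 it measured 6.43 and 6.77 with OHT, against 6.23 and 6.63 without. It was lower in both pools of the labelled knockout (-0.17 ± 0.06, limma adjusted p = 0.106) and higher in both pools of the wild type (0.17 ± 0.06, 0.0860). Its partner Rrm1 measured 3.89 and 4.39 with OHT, against 4.14 and 4.50 without, in A2 and B2, and 4.15 and 4.35 with OHT, against 4.21 and 4.36 without, in A1 and B1. Tyms, which makes thymidylate, was higher in all 4 pools by 0.09 to 0.32, with values between -1.32 and -1.69 over the arrays.

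Scaling changed which wild type genes passed. With quantile normalization the wild type calls were 2 higher (Rrm2 and Lig1) and 2 lower (Rfc5 and Orc2), and with normexp 3 higher (Rrm2, Lig1 and Pole) and 1 lower (Rfc5). Rrm2 then rose by 0.22 (limma adjusted p = 0.0384) and 0.30 (0.0134), and Lig1 by 0.25 (0.0294) and 0.28 (0.0348). Pole rose by 0.25 with normexp (0.0497). In the labelled knockout both settings called Rfc5 and Orc2 lower and nothing higher. Array median scaling called none in either genotype.

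The second question was whether the response to OHT differed with ERF. In the test of the difference of the OHT changes, labelled knockout minus wild type, 0 of 39 members passed in the paired fit, against 0.0% of all genes, and 2 had an unadjusted p under 0.05. Over all genes 1317 of 15179 had such a p. Rrm2 had a difference of -0.33 ± 0.08 (limma adjusted p = 0.339) and Mcm3 one of 0.31 ± 0.11 (0.527). The 95% interval lay within 1.5-fold for 34 of 39 members, against 49.5% of all genes, whose median level was lower, as given above. Rfc5 and Orc2 differed by 0.04 and -0.03 between the genotypes, less than their standard errors. In 6 of the 35 members measured on all arrays the pools of the genotypes had opposite signs, against 7.57% of all genes. These were Rrm2, Mcm3, Mcm4, Mcm6, Pole and Orc4. This count was not repeated under the other scalings, and the signs depend on the scaling, as given above.

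Between the genotypes at the same treatment no member passed either, against 0.0% of all genes with OHT and 0.0% untreated, and none had an unadjusted p under 0.05. Over all 15196 genes 344 had such a p with OHT and 195 untreated. With OHT the labelled knockout differed from the wild type by a median of -0.15, against 0.04 over all genes, and untreated by -0.08, against -0.02. Among members without a dark spot, Orc5 had the smallest p with OHT: it measured 0.80 and 0.87 in A2 and B2, against 1.08 and 1.13 in A1 and B1, a difference of -0.27 ± 0.17 (limma adjusted p = 0.999). Orc1 had the smallest untreated, with 1.13 and 1.44 in A2 and B2, against 1.39 and 1.89 in A1 and B1, a difference of -0.35 ± 0.25 (adjusted p = 1). The Orc5 groups did not overlap, and the Orc1 groups did. All labelled knockout arrays lay on 1 slide and the wild type pools on different slides; with slide as a block, or on slide 1 alone, 0 of 39 passed. The paired fit cannot test genotype, since pools are nested in it. The medians turned positive when the A2 array of the comparison was left out, at 0.14 with OHT and 0.18 untreated. The untreated median was also above 0 with normexp (0.015) and with array median scaling (0.15, against 0.21 over all genes).

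That array belongs to the pool in which the replication genes were lowest. Of the comparisons made, the largest differences of these genes lay between pools A2 and B2 of the labelled knockout; this comparison was added after the values were seen. In the paired fit 32 of 39 members were lower in pool A2 than in pool B2, against 28.9% of all genes (48.0% in either direction), and 2 were higher, against 19.1%. The members' median difference was -0.44, against -0.10 over all genes, and both pools were on the same slide. These p-values set the gap between the pools against how far the OHT change differed between the pools of a genotype. That spread was taken over both genotypes and partly from other genes, as above. Each pool was 1 mix of clones, measured on 1 array per treatment, so the p-values compare these pools and not genotypes. The median stayed between -0.30 and -0.45 under the 4 scalings, while the number called was 27 with quantile normalization, 33 with normexp and 6 with array median scaling.

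The GINS and MCM genes were among the lowest. Gins2 measured 1.98 and 2.17 in A2, with and without OHT, against 3.19 and 3.25 in B2, a difference of -1.15 ± 0.08 (2.21-fold lower, limma adjusted p = 3.46e-05). Gins4 differed by -1.07 ± 0.07 (2.10-fold lower, adjusted p = 3.39e-05), with 3.32 and 3.36 in A2, against 4.32 and 4.50 in B2. Neither gene's pools overlapped, and the gap was several times the change with OHT in either pool. Mcm5 measured 5.12 and 5.42 in A2, against 6.26 and 6.22 in B2, a difference of -0.97 ± 0.08 (adjusted p = 9.68e-05), and Mcm2 measured 4.37 and 4.34, against 5.19 and 5.17 (-0.83 ± 0.07, adjusted p = 6.31e-05). The other helicase subunits were lower as well, with differences of -0.23 (Mcm3), -0.50 (Mcm4), -0.46 (Mcm6) and -0.31 (Mcm7). All 8 loading and activation factors were below 0 and 7 of them passed, Cdc6 being the exception at -0.14. The probes of Cdc6 disagreed: its second, dimmer probe was higher in A2, at -0.36 with OHT and -0.23 without, against -0.65 and -0.98 in B2.

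Rfc3, a clamp loader subunit, measured 0.43 and 0.53 in A2, against 1.51 and 1.49 in B2 (-1.02 ± 0.10, limma adjusted p = 0.000182). All 6 clamp and clamp loader genes were lower and passed, with Pcna at -0.48. Pola2 (-0.89), Cdt1 (-0.83), Rpa2 (-0.81) and Mcm10 (-0.80) followed. Origin recognition was less uniform, with 4 genes lower, Orc5 at 0.01 and Orc4 higher by 0.68 ± 0.14 (adjusted p = 0.00483). Both Orc4 probes were higher in A2 at either treatment. Prim2 was the other gene called higher, at 0.68 ± 0.21 (0.0346), on 3 arrays. Prim1 (-0.19), Fen1 (-0.15), Tyms (0.10), Cdc6 and Orc5 did not pass.

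**Figure D5:**
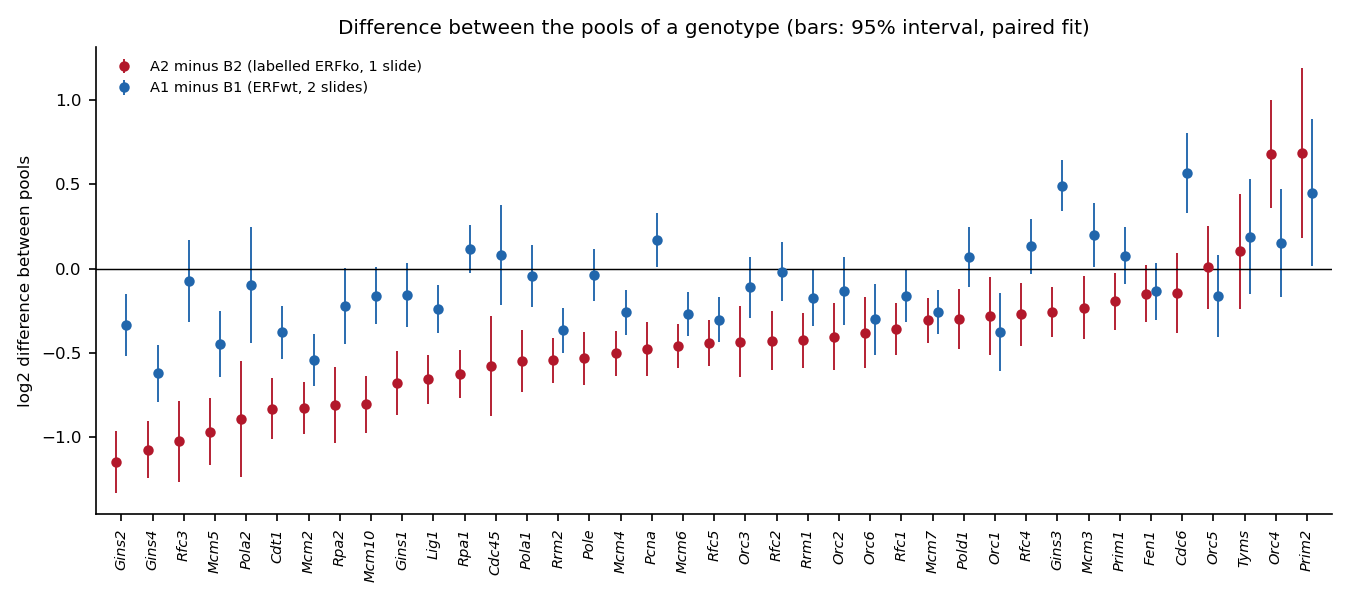
Log2 difference of each replication gene between pools, A2 minus B2 in the labelled knockout and A1 minus B1 in the wild type, with 95% intervals of the paired fit, ordered by A2 minus B2. Most A2 values lie below 0 down to -1.15 (Gins2), and the A1 values run from -0.62 (Gins4) to 0.56 (Cdc6).

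Between the wild type pools the spread was smaller: A1 was lower than B1 for 13 members, against 19.4% of all genes (31.7% in either direction), and higher for 2, against 12.3%. The median was -0.13, against -0.05 over all genes. Gins4 (-0.62 ± 0.07, limma adjusted p = 0.000985), Mcm2 (-0.54 ± 0.07, 0.00112) and Mcm5 (-0.45 ± 0.08, 0.00674) were again lower, and Cdc6 (0.56 ± 0.10, 0.00544) and Gins3 (0.49 ± 0.06, 0.00159) were higher. Pools A1 and B1 lay on different slides, so pool and slide cannot be told apart. Leaving out 1 of these 4 arrays left 3 to 6 members called, and array median scaling or the pool block alone left none. With normexp the balance turned, with 6 members higher (Cdc6, Gins3, Mcm3, Pcna, Rfc4 and Rpa1), 4 lower (Gins4, Mcm2, Mcm5 and Rrm2) and a median of -0.05. The difference of the pool differences was not tested.

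Cell type markers differed between pools as well, in both genotypes. Of all genes 19.1% passed as higher and 28.9% as lower in A2 than in B2. In A1 against B1 12.3% passed as higher and 19.4% as lower. The summed signal over the 75th percentile of 9 embryonic stem cell markers was 324 with OHT and 326 without in A2, against 534 and 495 in B2, and 402 to 473 in the wild type. Pou5f1 (-1.48), Nanog (-1.24) and Zfp42 (-2.13) were lower in A2 than in B2, among 8 of 10 such markers that passed as lower, while 1 passed as higher. The sum of 7 trophoblast markers was 343 and 291 in A2, against 37.6 and 27.5 in B2 and 23.0 to 104 in the wild type, with Krt8 (3.94) and Krt18 (3.82) higher and Elf5 below background on all arrays. Of these 7 markers 6 passed as higher in A2 than in B2 and 0 as lower, and the lowest difference was -0.28. The sum of 8 fibroblast markers was 36.3 and 19.2 in A2, against 19.3 and 17.6 in B2 and 13.7 to 27.5 in the wild type. Of 9 tested, 7 passed as higher in A2 than in B2 and 0 as lower. Of 7 primitive endoderm markers 2 passed as higher and 1 as lower. Between the wild type pools, 5 of 7 trophoblast markers passed as higher in A1 than in B1 and 0 as lower. There 5 of 9 fibroblast and 4 of 7 primitive endoderm markers passed as lower and 0 as higher. Of 10 embryonic stem cell markers 3 passed as higher and 3 as lower. Erf was also lower in A2 than in B2, as given above. The part of these in the lower replication genes was not tested, and fewer cells of a type and less RNA per cell cannot be told apart in bulk RNA.

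Other genes of the pathway were read in the same paired fit. Of 41 further replication factors tested, 2 passed as lower after OHT in the labelled knockout and none as higher, against 4.12% of all genes lower and 6.12% higher. The fork protection factor Tipin fell by 0.41 ± 0.06 (limma adjusted p = 0.00850) and the histone chaperone Nasp by 0.27 ± 0.06 (0.0308). In the wild type 3 passed as lower (Rnaseh2c, Mtbp and Chaf1b, with changes of -0.23 to -0.30) and 2 as higher. Of all genes 9.29% were lower and 8.14% higher. The origin firing factor Ticrr rose by 0.47 ± 0.11 (limma adjusted p = 0.0270) and the RNase H2 subunit Rnaseh2b by 0.32 ± 0.08 (0.0318). The 3 wild type falls and that of Nasp did not pass under any of the other 3 scalings, while Tipin, Ticrr and Rnaseh2b passed with quantile normalization and normexp and not with array median scaling. Between pools A2 and B2, 26 of the 41 were lower, against 28.9% of all genes, with a median of -0.39 and Rnaseh2a lowest at -1.45.

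Regulators upstream of these genes changed in both directions. Of 25 E2F and RB regulators, 5 passed as lower and 2 as higher after OHT in the labelled knockout. In the wild type 7 passed as lower and 3 as higher. Of all genes 4.12% were lower and 6.12% higher in the labelled knockout, and 9.29% lower and 8.14% higher in the wild type. With array median scaling 0 of the 25 passed in the labelled knockout and 1 (Cdk6, lower) in the wild type. Cyclin E1 (Ccne1), which drives entry into S phase, measured 6.05 and 6.46 with OHT, against 6.54 and 6.92 without, in A2 and B2, and 6.03 and 6.62 with OHT, against 6.40 and 6.99 without, in A1 and B1. Its change was -0.48 ± 0.06 (limma adjusted p = 0.00419) in the labelled knockout and -0.37 ± 0.06 (0.00419) in the wild type. The repressive factor E2f8, itself an E2F target, changed by -0.43 ± 0.08 (0.0172) in the labelled knockout and -0.71 ± 0.08 (0.00124) in the wild type, and the activator E2f2 by -0.62 ± 0.15 (0.0441) and -0.65 ± 0.15 (0.0265). The kinase inhibitors Cdkn1b, by 0.58 ± 0.09 (0.00964) and 0.44 ± 0.09 (0.0126), and Cdkn1a, by 0.44 ± 0.11 in each, rose. Cdkn1c, another inhibitor, changed by -0.98 ± 0.15 (0.0171) and -0.55 ± 0.11 (0.0198). Ccnd1 passed in the labelled knockout at -0.30 ± 0.07 (0.0441), and not with quantile normalization. The median change of the list was near 0, at -0.02 in the labelled knockout and -0.07 in the wild type.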

How the data were processed

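The file headers name Agilent Feature Extraction 11.5.1.1 as the source of the deposited spot intensity values, which are processed signals after background subtraction and detrending, unscaled between arrays. Other deposited columns used, per the file headers, were median pixel intensity of spot and background and flags, entered as score values, for well above background, saturation and non-uniformity. Groups, replicates and pools came from the labels, 2 arrays in each of 4 groups. Control and outlier spots were left out, and the log2 of each spot intensity as deposited by the authors was taken relative to the array's 75th percentile. Probes were named by accession through a RefSeq gene table (GRCm38.p6, names only): 28026 of 55681 probes matched 21154 genes. A probe was kept if well above background on both arrays of a group, and the brightest probe of a gene stood for it; Cdc6, Orc3, Orc4, Rfc4 and Pole had 2 each.

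The plain test was limma 3.58.1 in R 4.3.3 on the means of the 4 groups, two-sided, with p-values adjusted by Benjamini-Hochberg over every gene of a comparison (threshold 0.05). The paired fit had the pools as blocks, since the source names give the same pool with and without OHT: deviations of replicates correlated at 0.726 (labelled knockout) and 0.755 (wild type) with dark patches out. A dark patch was an area in which at least 30% of the bright spots in a window of 15 rows by 7 columns lay over 1.5 log2 below the spot's median over arrays, with a margin of 3 rows and 2 columns. Alternatives were quantile and array median scaling, normexp (offset 50, on median instead of mean signals, as the latter were not used here), filters, slide and replicates left out. The members and lists were chosen with earlier results of these data known. Values shown on all arrays are those of the 16 members with the smallest p after OHT, of the smallest in each other comparison, and of pool differences. Figures and tables used Python 3.11.15, pandas 2.3.3 and matplotlib 3.10.9.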

Additional observations from a re-analysis of the deposited data

Results flagged for a closer look

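For 6 members the OHT change had the same sign in both labelled knockout pools and the opposite sign in both wild type pools. That was 6 of 35 members measured on all arrays, against 7.57% of all genes. Some signs rest on small changes, such as 0.009 for Mcm4 in A1, 0.016 for Mcm6 in B1 and -0.014 for Orc4 in B1. Those of Rrm2 were larger, from -0.20 to 0.20. After array median scaling 37 of 39 members had a paired change below 0 in the labelled knockout. In the wild type 32 of 39 were then above 0. The count of 6 was not repeated under other scalings. The difference of the changes, labelled knockout minus wild type, was tested in the paired limma fit and passed for none of the 6. It was -0.33 for Rrm2 (adjusted p = 0.339), 0.31 for Mcm3 (0.527), -0.20 for Pole (0.620), -0.18 for Mcm6 (0.573), -0.18 for Mcm4 (0.600) and 0.26 for Orc4 (0.761). Rrm2 and Mcm3 had the smallest p-values of the 39 genes in this test. The second probe of Orc4 showed the same signs, with changes of 0.13 and 0.02 in A2 and B2 and -0.10 and -0.43 in A1 and B1. The second probe of Pole was well above background on 4 of 8 arrays.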

How the results depend on the processing

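The paired fit with other scalings or without single arrays, slide 1 alone and the comparison of pools were chosen after seeing the data. In the plain limma test without single arrays, 0 to 1 member passed for OHT in the labelled knockout, for the difference and for genotype with OHT. The member was Orc3 without the A2 OHT array and Prim2 without the B2 OHT array, each with its remaining OHT spot in a dark patch. The other plain settings passed 0 of 39. With the 4 pools as a replicate block and trended variance, Rfc5 passed in the labelled knockout (1), Rfc5 and Orc2 among wild type pools (2), and both genes in both (2 and 2) with dark patches left out; over all genes that last fit called 1554 and 2649, the plain test 0 and 0. Leaving single arrays or pools out of it passed 0 to 2 in either genotype: 0 without any wild type array for the wild type, and for the labelled knockout 0 without either A2 array and 1 (Rfc5) without either B2 array. Quantile normalization and normexp of the replicate block fit gave 2 and 2 in the labelled knockout and 4 and 4 in the wild type, where Rrm2 and Lig1 joined and normexp had Pole in place of Orc2; array median scaling gave 0 in both. The difference passed for 0 members in each paired setting. Pool A2 against B2 called 34 members, 26 to 31 without single arrays and 6 with array median scaling. Pool A1 against B1 called 15, 3 to 16 without single arrays, and 0 with array median scaling or the pool block alone. In the plain test without single arrays, where a group then held 1 pool, the Rrm2 change ran from -0.46 to 0.12 in the labelled knockout and from -0.028 to 0.36 in the wild type. Why calls moved with scaling was not tested. With 2 arrays a group, the number of arrays limits the precision.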
